A study of Mus musculus with 6 samples.

Results

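The unfolded protein response and the folding machinery of the endoplasmic reticulum (ER) were followed through 10 genes, taken by symbol because they encode the signal (Xbp1, Ern1, Atf6), the lumenal chaperones (Hspa5, Hsp90b1, Dnajb9, Sdf2l1), the disulfide isomerases (Pdia4, Pdia6) and a degradation factor (Herpud1). They are 10 of 46078 gene identifiers in the deposited tables, and all 10 were among the 18097 genes with enough counts to be tested. Total RNA was sequenced from 3 mouse libraries labelled JMML, for juvenile myelomonocytic leukaemia, a childhood myeloid neoplasm, and 3 libraries labelled WT, for wild type. The labels used here give no tissue, age, strain, promoter or altered gene for either group, and do not state that libraries came from separate animals. Each library has an identifier of its own, and the p-values measure the spread between these libraries. The genes were selected on their place in this pathway and on the higher Xbp1 count in JMML in this same contrast. Their own levels and fold changes are therefore a description without a test. The other genes of the pathway were tested, but their lists were also made with earlier results of these data known.

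Proteins that enter the ER are folded there by chaperones, and an excess of unfolded protein activates 3 membrane sensors, IRE1 (the product of Ern1), ATF6 and PERK (the product of Eif2ak3). IRE1 is a nuclease that removes an intron from Xbp1 mRNA, and the spliced mRNA encodes the transcription factor XBP1, which acts on genes for translocation, folding, secretion and degradation. ATF6 is cut in the Golgi, and its released part acts on chaperone genes and on Xbp1 itself. In blood cells XBP1 is known for its part in plasma cells, eosinophils and dendritic cells. Counts per gene cannot separate spliced from unspliced Xbp1 mRNA, and they do not show whether IRE1 or ATF6 protein was active.

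Promoters of ER chaperone genes are known to carry the ER stress response element, read by ATF6 and XBP1 together with NF-Y. The 5 promoters of the set that held it in full or without its last base are shown. They are RefSeq sequences of GRCm38.p6, each running from 250 bases before to 50 bases after the annotated start, written 5′ to 3′ on the strand of the gene, with the matching elements in capitals. Hspa5 lies at chr2:34771840-34772139 (plus strand), Hsp90b1 at chr10:86705395-86705694 (minus strand), Pdia6 at chr12:17266339-17266638 (plus strand), Pdia4 at chr6:47813463-47813762 (minus strand) and Herpud1 at chr8:94386179-94386478 (plus strand).
Hspa5: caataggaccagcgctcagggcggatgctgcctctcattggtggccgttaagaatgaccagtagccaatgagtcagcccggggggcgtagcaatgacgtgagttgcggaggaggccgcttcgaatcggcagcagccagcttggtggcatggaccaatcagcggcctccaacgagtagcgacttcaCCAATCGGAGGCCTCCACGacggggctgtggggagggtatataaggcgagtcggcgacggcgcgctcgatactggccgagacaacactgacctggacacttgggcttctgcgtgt
Hsp90b1: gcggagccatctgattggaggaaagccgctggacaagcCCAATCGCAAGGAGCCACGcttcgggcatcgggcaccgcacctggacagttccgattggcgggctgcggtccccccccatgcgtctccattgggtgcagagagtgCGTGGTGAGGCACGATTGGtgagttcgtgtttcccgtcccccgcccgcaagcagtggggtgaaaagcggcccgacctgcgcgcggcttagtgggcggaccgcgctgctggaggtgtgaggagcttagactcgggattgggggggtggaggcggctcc
Pdia6: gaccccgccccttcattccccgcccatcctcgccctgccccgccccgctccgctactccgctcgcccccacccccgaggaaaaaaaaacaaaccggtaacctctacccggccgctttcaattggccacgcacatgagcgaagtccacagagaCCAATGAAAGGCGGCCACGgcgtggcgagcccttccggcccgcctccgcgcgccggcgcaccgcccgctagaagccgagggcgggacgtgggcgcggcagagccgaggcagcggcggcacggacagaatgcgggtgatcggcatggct
Pdia4: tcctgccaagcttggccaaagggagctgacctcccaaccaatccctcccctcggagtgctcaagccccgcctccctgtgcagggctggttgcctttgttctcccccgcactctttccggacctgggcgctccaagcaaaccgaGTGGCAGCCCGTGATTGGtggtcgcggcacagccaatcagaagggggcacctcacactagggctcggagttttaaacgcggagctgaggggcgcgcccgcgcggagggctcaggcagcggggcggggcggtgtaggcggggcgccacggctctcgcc
Herpud1: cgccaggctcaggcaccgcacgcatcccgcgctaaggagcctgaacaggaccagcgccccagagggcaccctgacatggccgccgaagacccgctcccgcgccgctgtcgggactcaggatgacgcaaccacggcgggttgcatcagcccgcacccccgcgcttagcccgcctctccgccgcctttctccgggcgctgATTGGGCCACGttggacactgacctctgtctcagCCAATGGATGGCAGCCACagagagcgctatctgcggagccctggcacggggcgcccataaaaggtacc

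The full element, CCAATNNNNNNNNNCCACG, was searched on both strands. It stood in 3 of the 9 promoters that the RefSeq table holds for the 10 genes, those of Hspa5, Hsp90b1 and Pdia6, and in 39 of all 32851 promoters of that length (0.119%). In Hspa5 it began 65 bases before the start and in Pdia6 98 bases before it. Hsp90b1 held it at 212 bases before the start on the strand of the gene and again at 107 bases on the other strand. The same letters without the last base, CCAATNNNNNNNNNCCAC, stood in 120 promoters (0.365%), and added Pdia4, at 107 bases before the start on the other strand, and Herpud1, at 18 bases before the start. Herpud1 also held the second ER stress response element, ATTGGNCCACG, at 52 bases before the start, as did 12 of all promoters (0.0365%). The XBP1-binding element TGACGTGG stood in none of the 9 promoters and in 222 of all promoters (0.676%). The short site CCACG, which is part of the full and the second element, stood in 8 of the 9 and in 32.8% of all promoters. A match is a description of letters, not of binding, and no match says only that the letters are absent from this window. Atf6 has no entry in the table.

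**Figure D1:**
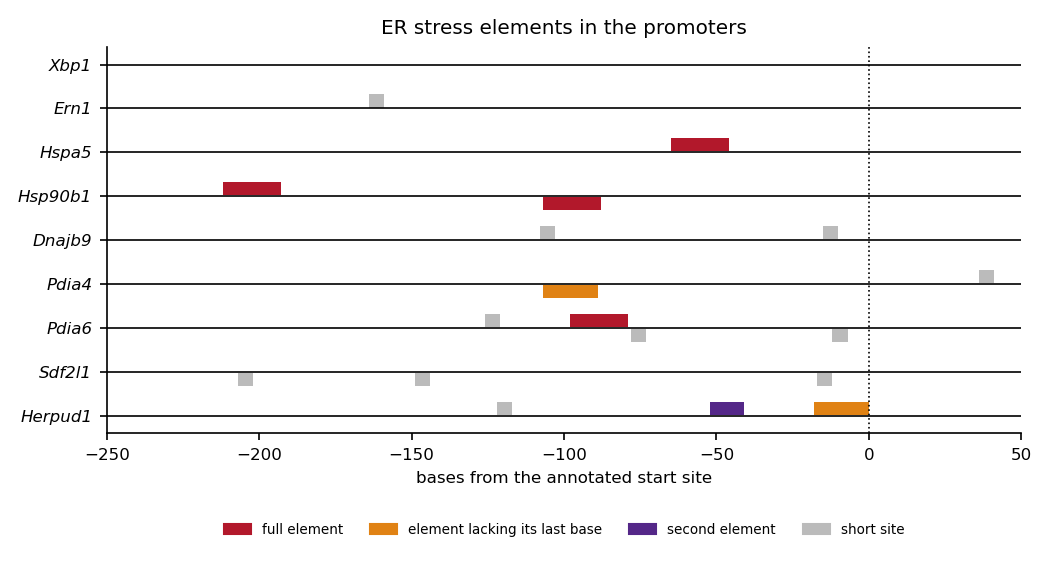
Positions of the searched elements in the promoters of the 9 genes with a RefSeq entry, in bases from the annotated start; boxes above a line are on the strand of the gene and boxes below it on the other, and short sites inside an element are not drawn. The full element stands in Hspa5, Hsp90b1 (on both strands) and Pdia6, the form without its last base also in Pdia4 and Herpud1, and the second element in Herpud1.

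The libraries held 91976512, 108395459 and 95382538 counts in JMML replicates 1, 2 and 3, and 61656272, 47096464 and 56163368 counts in WT replicates 1, 2 and 3. The 10 genes were deeply counted: the lowest single value was 868 counts, for Dnajb9 in WT replicate 1. The letter in the identifier is F for JMML replicates 1 and 2 and M for the remaining 4 libraries, and Xist had 54449 and 49961 counts in those F libraries against at most 36 in any other. Female and male libraries are therefore divided unevenly between the groups, and the values adjusted for the letter are given for the genes named below whose calls they change. No WT library has the letter F, so these adjusted values set JMML replicate 3 alone against the WT libraries. They cannot separate the letter from that library. Levels below are CPM, counts scaled to library size after TMM scaling, and log2 fold changes are JMML over WT from edgeR's fit, with their standard error (SE).

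Xbp1, which encodes the transcription factor (chr11:5520659-5525893 in GRCm38), had 222, 233 and 213 CPM in JMML replicates 1, 2 and 3, against 140, 132 and 135 CPM in WT replicates 1, 2 and 3. Every JMML library stood above every WT library, and replicates lay close together, at 223 ± 10.1 CPM in JMML and 136 ± 3.96 CPM in WT (SD, n = 3 each). The log2 fold change was 0.72 ± 0.10 (SE), a 1.64-fold higher level in JMML, and it stayed between 0.53 and 0.80 in 16 other settings of the analysis. In bulk libraries, fewer cells of a type and less RNA per cell cannot be told apart, which holds for each level given here.

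Ern1, which encodes the IRE1 sensor and nuclease (chr11:106394650-106487852), differed in direction from Xbp1. It had 41.7, 66.2 and 54.6 CPM in JMML replicates 1, 2 and 3, against 83.7, 91.4 and 61.9 CPM in WT replicates 1, 2 and 3. JMML replicate 2 exceeded WT replicate 3, so the groups overlapped, and the means were 54.2 ± 12.2 CPM in JMML and 79.0 ± 15.3 CPM in WT (SD, n = 3 each). The log2 fold change was -0.54 ± 0.21 (SE), and it was the only negative one among the 10 genes.

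Atf6, which encodes the sensor that is cleaved into a transcription factor (chr1:170704674-170867771), had 127, 163 and 130 CPM in JMML replicates 1, 2 and 3, against 99.7, 101 and 94.4 CPM in WT replicates 1, 2 and 3. The groups did not overlap, and JMML replicate 2 stood above the other JMML libraries. The means were 140 ± 20.1 CPM in JMML and 98.5 ± 3.63 CPM in WT (SD, n = 3 each), a log2 fold change of 0.51 ± 0.12 (SE).

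Hspa5 encodes BiP, the main Hsp70 chaperone of the ER, which also holds the sensors inactive. At chr2:34771970-34777547, it had 615, 586 and 858 CPM in JMML replicates 1, 2 and 3, against 416, 392 and 452 CPM in WT replicates 1, 2 and 3. All JMML libraries stood above all WT libraries, with JMML replicate 3 well above the other JMML libraries. The means were 686 ± 149 CPM in JMML and 420.3 ± 29.9 CPM in WT (SD, n = 3 each), a log2 fold change of 0.71 ± 0.17 (SE). Without JMML replicate 3 the log2 fold change was 0.54.

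Hsp90b1 encodes endoplasmin, the ER member of the Hsp90 family, which folds integrins and Toll-like receptors. At chr10:86690209-86705509, it had 688, 653 and 929.9 CPM in JMML replicates 1, 2 and 3, against 512, 517 and 543 CPM in WT replicates 1, 2 and 3. The groups did not overlap, and JMML replicate 3 was again the highest. The means were 757 ± 151 CPM in JMML and 524 ± 16.9 CPM in WT (SD, n = 3 each), with a log2 fold change of 0.53 ± 0.16 (SE) that was 0.38 without JMML replicate 3. The span of Hsp90b1 overlaps a pseudogene on the opposite strand, with 160 to 289 counts per library, and a miRNA gene on the same strand, with 434 to 2107 counts. The strand setting of the counting is not given in the sources used here, so reads of overlapping genes are uncertain, but these counts are small beside the 26981 to 84591 of Hsp90b1.

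Dnajb9 encodes an ER J-domain co-chaperone that hands substrates to BiP and is a known XBP1 target. At chr12:44205559-44210326, it had 25.2, 22.7 and 24.5 CPM in JMML replicates 1, 2 and 3, against 13.3, 18.0 and 18.6 CPM in WT replicates 1, 2 and 3. JMML libraries were nearly equal, WT replicate 1 was the low one, and the groups did not overlap. The log2 fold change was 0.54 ± 0.16 (SE), from 24.2 ± 1.30 CPM in JMML and 16.6 ± 2.88 CPM in WT (SD, n = 3 each).

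Sdf2l1, which encodes a small lumenal partner of BiP and its co-chaperones, had the largest fold change of the 10 genes in edgeR's fit to all 6 libraries. At chr16:17130138-17132383, it had 69.0, 73.2 and 109 CPM in JMML replicates 1, 2 and 3, against 45.1, 32.7 and 39.6 CPM in WT replicates 1, 2 and 3. Again the groups did not overlap and JMML replicate 3 was the highest. The log2 fold change was 1.1 ± 0.21 (SE), a 2.14-fold higher level in JMML, and 0.88 without JMML replicate 3.

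Among the enzymes that form and rearrange disulfide bonds, Pdia6 was the clearer. At chr12:17266545-17284770, Pdia6 had 255, 251 and 327 CPM in JMML replicates 1, 2 and 3, against 195, 160.0 and 189 CPM in WT replicates 1, 2 and 3. The groups did not overlap, and the log2 fold change was 0.62 ± 0.15 (SE). Pdia4, at chr6:47796141-47813430, had 149.9, 179 and 244 CPM in JMML replicates 1, 2 and 3, against 141, 124 and 146 CPM in WT replicates 1, 2 and 3. JMML replicate 1 lay only just above WT replicate 3, and JMML replicate 3 was far above both. The log2 fold change of Pdia4 was 0.48 ± 0.18 (SE), and it was 0.29 without JMML replicate 3.

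Herpud1 encodes a membrane protein that organises the ubiquitin ligase complex of ER-associated degradation. At chr8:94386438-94395377, it had 73.2, 91.1 and 87.6 CPM in JMML replicates 1, 2 and 3, against 54.9, 48.8 and 69.9 CPM in WT replicates 1, 2 and 3. WT replicate 3 came close to JMML replicate 1, without overlap. The log2 fold change was 0.54 ± 0.16 (SE), from 83.9 ± 9.48 CPM in JMML and 57.9 ± 10.8 CPM in WT (SD, n = 3 each).

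**Figure D2:**
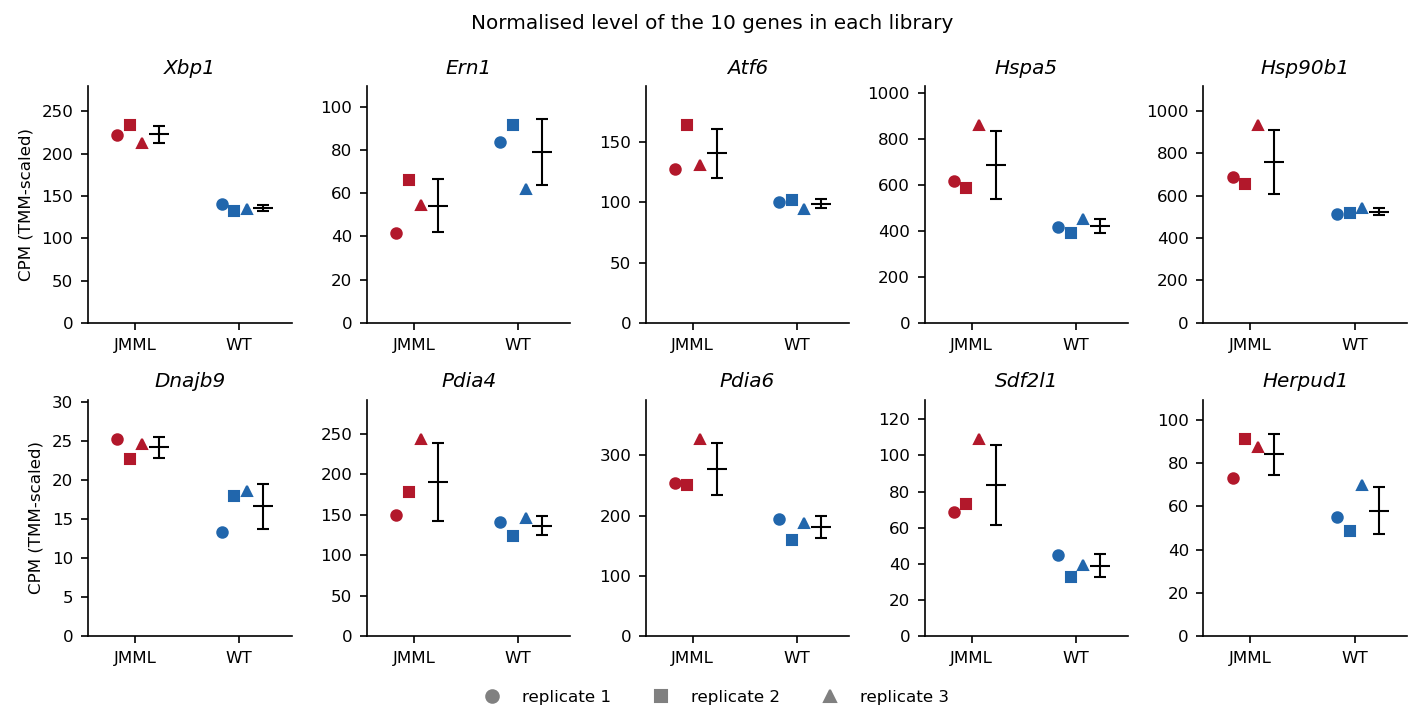
TMM-scaled CPM of each of the 10 genes in each library, JMML left and WT right, each panel with its own axis from 0; marker shapes give the replicate number, and the bar beside each group is the mean ± SD (n = 3). JMML libraries stand above WT libraries without overlap for 9 genes, from 222, 233 and 213 CPM against 140, 132 and 135 CPM for Xbp1, and Ern1 overlaps.

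In the plot of levels by library, 9 of the 10 genes had no overlap between groups with JMML higher, and Ern1 was the exception. Of all 18097 genes tested, 22.9% had no overlap with JMML higher and 24.6% had none with JMML lower. At an adjusted p under 0.05 in edgeR's test, 8 of the 10 were higher in JMML and 0 lower, and Ern1 and Pdia4 did not pass (lower at an unadjusted p under 0.05 in edgeR, 1, and by DESeq2, 0). The share of all genes called was 12.4% higher and 13.8% lower, 26.2% in all, and since the genes were picked for this contrast nothing is read from the difference. The median log2 fold change of the 10 genes was 0.54, and that of all genes tested was -0.02.

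The count of calls moved with the processing and with single libraries, and it is given as a description, since the calls come from the contrast that chose the genes. Without JMML replicates 1, 2 and 3 in turn, 8, 4 and 4 of the 10 genes were called higher, and without WT replicates 1, 2 and 3 in turn, 3, 1 and 4. Over all genes tested, the number called higher fell from 2245 to between 1050 and 1955 in these fits. With the identifier letter as a covariate, Atf6 (0.40), Dnajb9 (0.56) and Herpud1 (0.60) lost the call, and Pdia4 (0.83) gained it, each value a log2 fold change. JMML replicate 3 alone sets the JMML side of these values. The sign of the fold change was the same in all 16 other settings for each of the 10 genes.

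**Figure D3:**
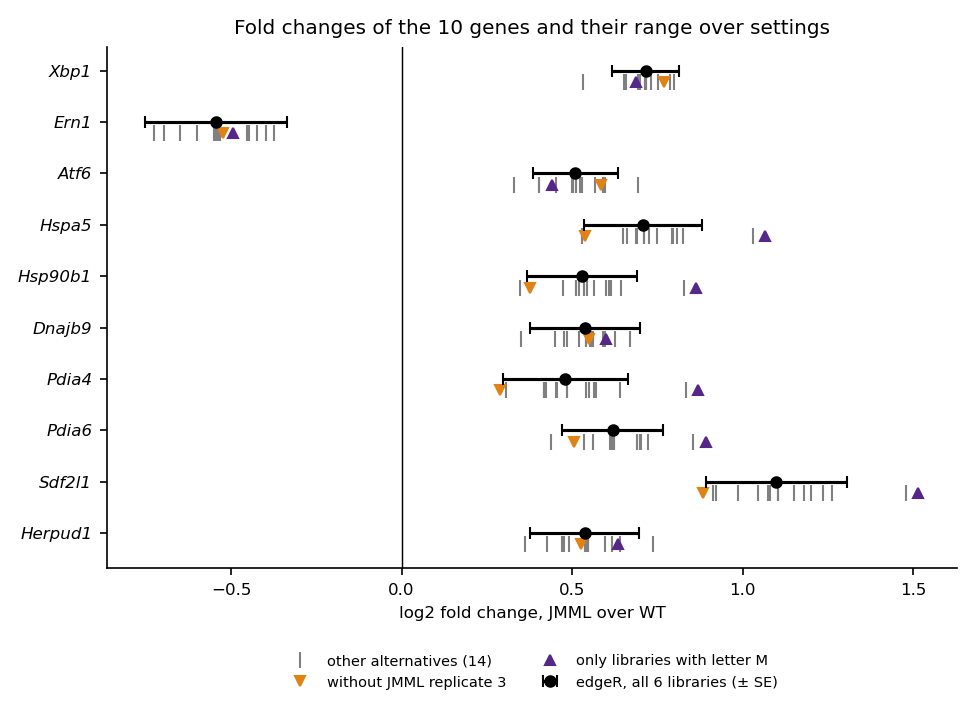
Log2 fold change of each of the 10 genes, JMML over WT, with its SE in edgeR's fit to all 6 libraries (black) and its value in 16 other settings (marks below); the axis is log2. Sdf2l1 is farthest to the right at 1.1, Ern1 is the only gene left of 0 at -0.54, and the setting with only letter M libraries, which holds JMML replicate 3 alone, moves Hspa5 to 1.07.

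Compared between genes on a scale of CPM per kilobase of exon, Hsp90b1 was the most abundant, with 188 ± 37.4 in JMML and 130.0 ± 4.18 in WT (SD, n = 3 each). Hspa5 followed with 162 ± 35.3 CPM per kilobase in JMML and 99.4 ± 7.08 in WT. Hsp90b1 stood above Hspa5 in each of the 6 libraries, for example at 171, 162 and 231 CPM per kilobase against 145, 139 and 203 in JMML replicates 1, 2 and 3. Pdia4, Sdf2l1, Pdia6 and Xbp1 came next, between 68.6 and 79.5 CPM per kilobase on average in JMML and between 35.3 and 57.0 in WT, and their order differed between the JMML libraries, while in each WT library it was Pdia4, Pdia6, Xbp1 and Sdf2l1. With the length of the longest transcript in place of all exons, Pdia6 and Xbp1 moved ahead of Pdia4 and Sdf2l1. Herpud1, Atf6, Dnajb9 and Ern1 closed the order in JMML, and Ern1 stood at 6.63 ± 1.5 CPM per kilobase in JMML and 9.66 ± 1.87 in WT. In WT the order of Ern1 and Dnajb9 was reversed, with Dnajb9 lowest at 6.53 ± 1.13 CPM per kilobase.

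Whether the higher Xbp1 level goes with its targets was asked of 40 genes known from studies of XBP1, of which 36 are not among the 10. These 36 include the translocon, the signal peptidase, the signal recognition particle receptor and the degradation complex. In edgeR's test 16 of the 36 were higher in JMML and 1 lower, and their median log2 fold change was 0.41. Without WT replicate 1 the number higher was 9, and without WT replicate 2 it was 6. In these fits the number higher over all genes was 1508 and 1050, against 2245 with all libraries. Among the other pathway genes outside the XBP1 target list, 35 of 100 tested were higher and 3 lower. Their median log2 fold change was 0.30, and the difference between these groups of genes was not tested. Over all genes tested, 12.4% were higher and 13.8% lower.

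Library by library, the mean log2 CPM of the 36 targets stood 0.33, 0.33 and 0.48 above the WT mean in JMML replicates 1, 2 and 3, against 0.03, -0.04 and 0.00 in WT replicates 1, 2 and 3. Xbp1 itself stood 0.71, 0.78 and 0.65 above its WT mean in JMML replicates 1, 2 and 3. JMML libraries were thus above WT libraries for both, but Xbp1 was lowest of the JMML libraries in replicate 3, where its targets were highest. The distance between Xbp1 and the mean of its targets was 1.34, 1.42 and 1.14 log2 units in JMML replicates 1, 2 and 3, against 0.98, 0.96 and 0.96 in WT replicates 1, 2 and 3. In each JMML library Xbp1 stood farther above WT than the mean of its targets did.

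The 16 ATF6 targets overlap the 10 genes, and 10 of them were left for testing. Of these, 4 were higher in JMML and 0 lower, with a median log2 fold change of 0.46. The number higher was 1 without any of JMML replicate 2, JMML replicate 3, WT replicate 1 or WT replicate 3, and 0 without WT replicate 2. Their mean log2 CPM stood 0.09, 0.26 and 0.52 above the WT mean in JMML replicates 1, 2 and 3, against 0.08, -0.11 and 0.03 in WT replicates 1, 2 and 3. JMML replicate 1 lay barely above WT replicate 1, and JMML replicate 3 was far above every other library.

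**Figure D4:**
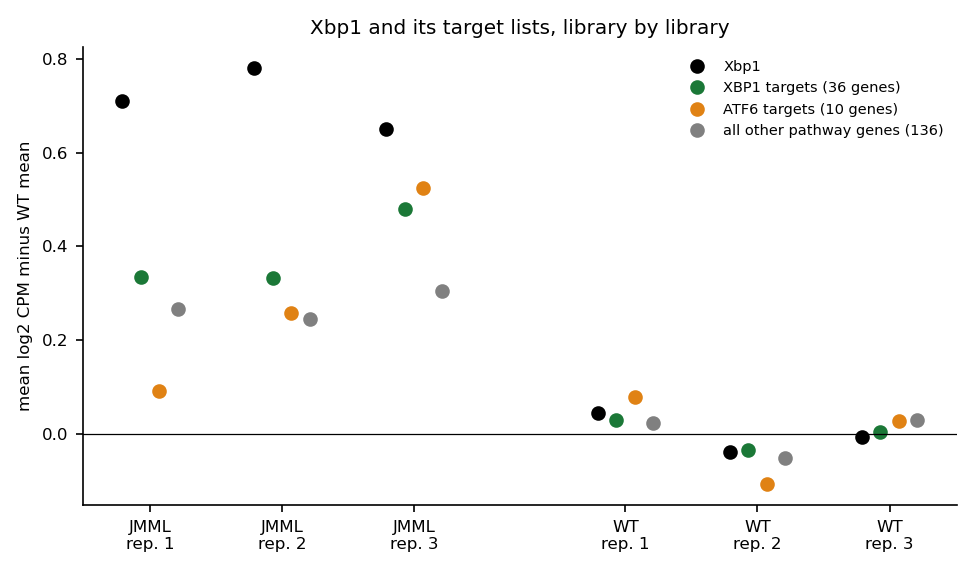
Mean log2 CPM minus the WT mean in each library for Xbp1 (black), 36 XBP1 targets (green), 10 ATF6 targets (orange) and all 136 other pathway genes tested (grey); the 10 genes are left out of each list. Xbp1 stands at 0.71, 0.78 and 0.65 in JMML replicates 1, 2 and 3, and the ATF6 targets spread from 0.09 to 0.52 over the same libraries.

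JMML replicate 3 stood apart within its group. It was the highest JMML library for 5 of the 10 genes (Hspa5, Hsp90b1, Pdia4, Pdia6 and Sdf2l1), for 8 of the 10 remaining ATF6 targets and for 10 of 11 genes of glycoprotein folding. For the 136 other pathway genes the share was 50%, and for all genes tested it was 29.3%. Other lists had JMML replicate 1 highest more often: for the IRE1 decay substrates it was highest in 6 of 9 genes and JMML replicate 3 in 1, for the sensors in 5 of 11 and 4, and for translocation in 12 of 23 and 11. JMML replicate 3 is also the only JMML library with the letter M, its identifier shares its first part with that of WT replicate 3, and the part of the letter in these values was not tested apart from that of the library itself.

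Across the rest of the pathway, 136 genes of 12 lists were tested, each counted once. In edgeR's test 51 were higher in JMML and 4 lower, with 12.4% of all genes higher and 13.8% lower, and the median log2 fold change was 0.33. For lists given below with 0 lower, edgeR at an unadjusted p under 0.05 and DESeq2 also gave 0 lower, except for 1 gene by each in glycoprotein folding and in the ER exit coat. Groups did not overlap with JMML higher for 72 of the 136 and with JMML lower for 10. The calls moved with single libraries: 47, 38 and 28 were higher without JMML replicates 1, 2 and 3 in turn, and 29, 18 and 31 without WT replicates 1, 2 and 3. Over all genes tested, the number higher fell too, from 2245 to 1955, 1528 and 1776, and to 1508, 1050 and 1717. The median log2 fold change of the other pathway genes stayed between 0.30 and 0.41 in these fits. Counts given for single lists without a library come from the same fits. The shares of all genes, 12.4% higher and 13.8% lower, are those to set beside the counts of each list below. Among the 51, 9 were called in all 16 other settings (P4hb, Ero1l, Txndc12, Edem1, Selenos, Serp1, Ostc, Surf4 and Itgb2), and of the 4 lower, Ppp1r15a. With the identifier letter as a covariate 23 were higher. Calls named below were then lost, at the log2 fold changes in brackets, for Wfs1 (0.89), Rtraf (0.47), Atf6b (0.48), Fam98b (-0.73), Cnpy3 (0.61), Dnajc3 (0.56), Pdia5 (0.85), Lman2 (0.62), Syvn1 (-0.82) and Edem2 (0.65). They were lost likewise for Ssr4 (0.58), Sec61b (0.71), Rpn1 (0.62), Krtcap2 (0.46), Tmed10 (0.55), Sar1b (0.71), Sec13 (0.73), Atf4 (0.63), Hgsnat (0.53) and Bloc1s1 (0.48), while Calr (1.01) and Creld2 (1.08) gained a call. With library totals in place of TMM scaling, which lowers the median of all genes by 0.18 on the log2 scale, 21 were higher and 8 lower. The calls named below for Tmbim6, Rtraf, Atf6b, Dnajc3, Hspa13, Lman2, Edem2, Rpn1, Ddost, Krtcap2, Sec13, Atf4, Manf, Pdia3 and Bloc1s1 were then lost.

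**Figure D5:**
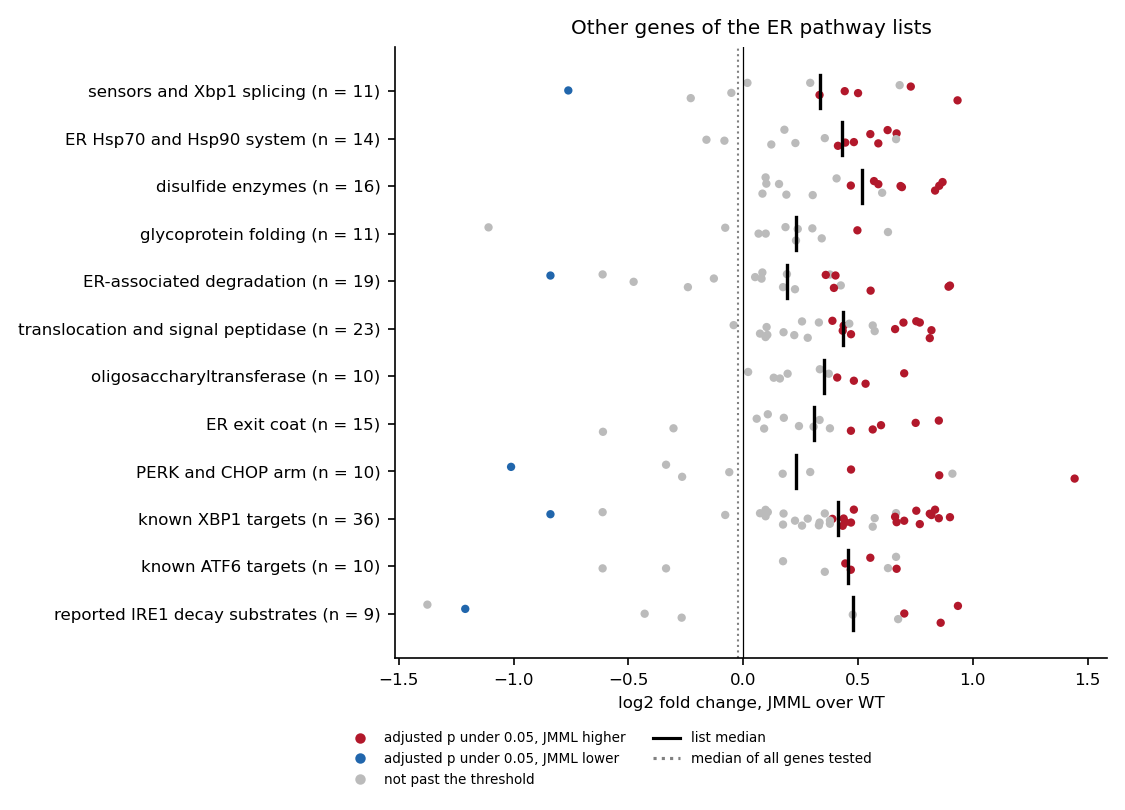
Log2 fold change, JMML over WT, of the tested genes of 12 pathway lists with the 10 genes left out (n in the row label; a gene can be in several lists); red and blue points passed an adjusted p under 0.05 in edgeR's test, black bars are list medians, and the dotted line is the median of all genes tested. The medians run from 0.19 for ER-associated degradation to 0.52 for disulfide enzymes, against -0.02 for all genes.

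Of the sensors and factors around Xbp1 splicing, 5 of 11 rose and 1 fell, with a median log2 fold change of 0.33. Wfs1, which encodes wolframin of the ER membrane, rose by 0.93 ± 0.19 log2 units (adjusted p = 0.0126). Tmbim6, which encodes an ER membrane protein that restrains IRE1, rose by 0.73 ± 0.16 log2 units (adjusted p = 0.0175), a call lost without WT replicate 1 (0.78) or WT replicate 2 (0.67). Atf6b, the relative of Atf6, rose by 0.44 ± 0.10 log2 units (adjusted p = 0.0207), a call lost without JMML replicate 3 (0.45) or WT replicate 2 (0.38). In the tRNA ligase complex that joins the Xbp1 exons, the subunit Rtraf rose by 0.50 ± 0.12 log2 units (adjusted p = 0.0204), lost without WT replicate 2 (0.51). Rtcb of the same complex rose by 0.33 ± 0.10 log2 units (adjusted p = 0.0463). That call was kept in 3 of the 16 other settings and in no fit without a single library. Ddx1 (-0.05) and Zbtb8os (0.68), also on this list, did not pass. The subunit Fam98b of the complex had 11.2 ± 0.533 CPM in JMML and 19.0 ± 4.03 CPM in WT (SD, n = 3 each), a log2 fold change of -0.76 ± 0.19 (adjusted p = 0.0241). That call was lost without any single library but WT replicate 3 (-0.77 to -0.61). The number of the list that rose was 3 without JMML replicate 3 or WT replicate 1, and 1 without WT replicate 2. Eif2ak3, which encodes PERK, did not pass, at 59.9 ± 7.89 CPM in JMML and 49.0 ± 6.97 CPM in WT (log2 fold change 0.29 ± 0.15, adjusted p = 0.183). Fam98b, Eif2ak3, Rtcb, Ddx1 and Zbtb8os were singled out after their values were seen.

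Among partners of Hspa5 and Hsp90b1, 7 of 14 rose and 0 fell, with a median log2 fold change of 0.43. Dnajb11, a co-chaperone of BiP that works with Sdf2l1, rose by 0.67 ± 0.14 log2 units (adjusted p = 0.0156) and lost its call without WT replicate 2 (0.59). Cnpy3, which assists endoplasmin with Toll-like receptors, rose by 0.63 ± 0.11 log2 units (adjusted p = 0.00889). Dnajc3, another BiP co-chaperone, rose by 0.44 ± 0.11 log2 units (adjusted p = 0.0240), and Hspa13, an Hsp70 relative, by 0.48 ± 0.12 log2 units (adjusted p = 0.0254). The calls of Dnajc3 and Hspa13 were lost without JMML replicate 3 (0.41 for each gene) or any WT replicate (0.45 to 0.51 for Dnajc3 and 0.50 to 0.54 for Hspa13), and that of Dnajc3 also without JMML replicate 2 (0.46). Manf, a secreted ER stress protein, rose by 0.55 ± 0.15 log2 units (adjusted p = 0.0358), a call lost without JMML replicate 2 (0.63), JMML replicate 3 (0.39) or any WT replicate (0.54 to 0.63). The number of the list that rose was 3 when JMML replicate 2 or WT replicates 1 or 3 were left out singly, 2 without JMML replicate 3 and 1 without WT replicate 2.

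The disulfide enzymes beside Pdia4 and Pdia6 had the highest median log2 fold change of the 12 lists, at 0.52. Of 16 genes tested, 8 rose and 0 fell, and all 16 fold changes pointed to JMML. P4hb, which encodes protein disulfide isomerase itself, rose to 841, 923 and 992 CPM in JMML replicates 1, 2 and 3, against 532, 469 and 509 CPM in WT replicates 1, 2 and 3 (log2 fold change 0.87 ± 0.13, adjusted p = 0.00501). Ero1l, the oxidase that recharges it, had 250.1 ± 40.0 CPM in JMML and 138 ± 3.64 CPM in WT (SD, n = 3 each) and rose by 0.85 ± 0.13 log2 units (adjusted p = 0.00631). Txndc12, a small thioredoxin-like ER protein, rose by 0.69 ± 0.12 log2 units (adjusted p = 0.00779). These genes were called in each of the 16 other settings. Pdia5 rose by 0.84 ± 0.17 log2 units (adjusted p = 0.0135), lost without WT replicate 2 (0.77). Pdia3, which pairs with calnexin and calreticulin, rose by 0.47 ± 0.13 log2 units (adjusted p = 0.0378), lost without JMML replicate 2 (0.51), JMML replicate 3 (0.38) or any WT replicate (0.47 to 0.53). The number of the list that rose was 5, 4 and 5 without WT replicates 1, 2 and 3 in turn.

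Glycoprotein folding, which joins the calnexin and calreticulin cycle with cargo receptors, was the list with the lowest share of calls. In it 1 of 11 rose (9.09%) and 0 fell, beside 12.4% of all genes higher and 13.8% lower. The median log2 fold change was 0.23, and 9 of the 11 fold changes pointed to JMML. The gene that rose was Lman2, a cargo lectin (log2 fold change 0.50 ± 0.14, adjusted p = 0.0383), and its call was lost without JMML replicates 2 (0.51) or 3 (0.45) or WT replicates 2 (0.42) or 3 (0.50). Without JMML replicate 1 the list had 2 calls. Calr, which encodes calreticulin, had 782, 968 and 1342 CPM in JMML replicates 1, 2 and 3, against 699, 590.3 and 708 CPM in WT replicates 1, 2 and 3. The groups did not overlap, yet the value of 0.63 ± 0.21 did not pass (adjusted p = 0.0628). It passed in 5 of the 16 other settings, among them without JMML replicate 1 (0.81), and was 0.42 without JMML replicate 3. Uggt2, which encodes a folding sensor of glycoproteins, also did not pass (log2 fold change -1.11 ± 0.37, adjusted p = 0.0651), nor did Mcfd2, a cargo receptor subunit (log2 fold change 0.30 ± 0.12, adjusted p = 0.0930).

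In ER-associated degradation 6 of 19 genes were higher and 1 lower, beside 12.4% of all genes higher and 13.8% lower. The median log2 fold change was 0.19, and 14 of the 19 fold changes pointed to JMML. Edem1, which hands misfolded glycoproteins to degradation, rose to 323, 397 and 354 CPM in JMML replicates 1, 2 and 3, against 182, 198 and 195 CPM in WT replicates 1, 2 and 3 (log2 fold change 0.90 ± 0.12, adjusted p = 0.00401). Selenos, a selenoprotein of the retrotranslocation complex, rose by 0.89 ± 0.11 log2 units (adjusted p = 0.00355), and both were called in all 16 other settings. Edem2 rose by 0.56 ± 0.13 log2 units (adjusted p = 0.0198), lost without JMML replicates 2 (0.53) or 3 (0.53) or WT replicates 2 (0.54) or 3 (0.55). Syvn1, the Hrd1 ubiquitin ligase that Herpud1 helps to organise and itself a known XBP1 target, fell to 15.5, 24.1 and 20.2 CPM in JMML replicates 1, 2 and 3, against 37.2, 32.0 and 37.9 CPM in WT replicates 1, 2 and 3. Its log2 fold change was -0.84 ± 0.18 (adjusted p = 0.0168), opposite in sign to that of Herpud1, and the call was lost without WT replicate 1 (-0.76) or WT replicate 3 (-0.75). The number of the list that rose was 3 without JMML replicate 2 or WT replicate 1, and 2 without JMML replicate 3 or WT replicate 2.

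Entry into the ER was represented by 23 genes of the translocon, the signal recognition particle and the signal peptidase, of which 10 rose and 0 fell, with a median log2 fold change of 0.43. Serp1, which stabilises membrane proteins at the translocon, had 468 ± 17.1 CPM in JMML and 267 ± 12.8 CPM in WT (SD, n = 3 each) and rose by 0.81 ± 0.11 log2 units (adjusted p = 0.00395). The translocon genes Ssr4 (log2 fold change 0.77 ± 0.13, adjusted p = 0.00735), Sec61b (log2 fold change 0.75 ± 0.13, adjusted p = 0.00753) and Sec61a1 (log2 fold change 0.66 ± 0.13, adjusted p = 0.0108) rose too. Of these, Sec61a1 lost its call without WT replicate 2 (0.61). The number of the list that rose was 4 without WT replicate 1 and 3 without WT replicate 2.

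The oligosaccharyltransferase, which attaches N-glycans to entering proteins, had 4 of 10 genes higher and 0 lower, with a median log2 fold change of 0.35. Its subunit Ostc rose by 0.70 ± 0.11 log2 units (adjusted p = 0.00559) and was called in all 16 other settings. Rpn1 (log2 fold change 0.48 ± 0.12, adjusted p = 0.0276), Ddost (log2 fold change 0.53 ± 0.15, adjusted p = 0.0389) and Krtcap2 (log2 fold change 0.41 ± 0.12, adjusted p = 0.0448) rose as well. These 3 calls rested on every library but JMML replicate 1 for Rpn1 and Ddost, and on every library for Krtcap2, so that 1 gene of the list was called without any one of JMML replicates 2 and 3 or the WT replicates. Without such a library the values ran from 0.41 to 0.59 for Rpn1, from 0.43 to 0.68 for Ddost and from 0.33 to 0.52 for Krtcap2. In WT replicate 1 all 10 genes of the list stood highest of the WT libraries.

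Of the coat that carries cargo out of the ER, 5 of 15 rose and 0 fell, with a median log2 fold change of 0.31. The cargo receptor Surf4 rose by 0.85 ± 0.13 log2 units (adjusted p = 0.00536), and the GTPase gene Sar1b by 0.75 ± 0.14 log2 units (adjusted p = 0.0112). Tmed10, another cargo receptor, rose by 0.60 ± 0.10 log2 units (adjusted p = 0.00761). The coat gene Sec13 rose by 0.56 ± 0.15 log2 units (adjusted p = 0.0282), a call lost without JMML replicates 2 (0.61) or 3 (0.49) or WT replicates 2 (0.44) or 3 (0.66). When JMML replicate 3 or WT replicates 2 or 3 were left out singly, the list had 3 genes that rose.

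Of the PERK arm 3 of 10 genes rose and 1 fell, beside 12.4% of all genes higher and 13.8% lower. The median log2 fold change was 0.23, and 6 of the 10 fold changes pointed to JMML. Atf3, a stress-induced transcription factor, rose by 1.44 ± 0.22 log2 units (adjusted p = 0.00575), although at a low level of 7.24 ± 1.04 CPM in JMML and 2.66 ± 0.399 CPM in WT (SD, n = 3 each). Its call was lost only in the setting that kept JMML replicate 3 as the single JMML library (1.25). Atf4, the main factor downstream of PERK, rose by 0.47 ± 0.13 log2 units (adjusted p = 0.0366), a call lost without any single library but WT replicate 1 (0.40 to 0.54). The remaining gene that rose was Ero1l, given above with the disulfide enzymes (log2 fold change 0.85 ± 0.13, adjusted p = 0.00631). Ppp1r15a, the feedback gene that restores translation, fell to 21.6, 17.1 and 12.5 CPM in JMML replicates 1, 2 and 3, against 36.7, 31.4 and 35.1 CPM in WT replicates 1, 2 and 3 (log2 fold change -1.01 ± 0.21, adjusted p = 0.0140). Ddit3, which encodes CHOP, singled out after its values were seen, had 6.81 ± 1.17 CPM in JMML and 8.60 ± 0.787 CPM in WT (SD, n = 3 each) and did not pass (log2 fold change -0.34 ± 0.19, adjusted p = 0.223).

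Of the transcripts that IRE1 is reported to cut directly, 3 of 9 rose and 1 fell, beside 12.4% of all genes higher and 13.8% lower. Fold changes of 5 of the 9 pointed to JMML. The median log2 fold change of 0.48 and the mean difference of -0.01 had opposite signs. Itgb2, a leukocyte integrin chain, rose by 0.94 ± 0.16 log2 units (adjusted p = 0.00824). Hgsnat, a lysosomal enzyme, rose by 0.86 ± 0.16 log2 units (adjusted p = 0.0101), and by 0.53 with the letter as a covariate. Bloc1s1, the standard reporter of this activity, rose by 0.70 ± 0.19 log2 units (adjusted p = 0.0316), a call lost without JMML replicate 1 (0.51) or WT replicates 1 (0.72) or 2 (0.63). Pdgfrb, a receptor of stromal cells, fell by 1.21 ± 0.33 on the log2 scale (adjusted p = 0.0352), a call lost without any single library but JMML replicate 3 (-1.39 to -0.99). Pdgfrb is also on the stromal marker list. Of the genes that did not pass, Tapbp (0.67) and Ergic3 (0.48) had log2 fold changes above 0. Those of Col6a1 (-1.38), Scara3 (-0.43) and Sparc (-0.27) were below 0. The part of stromal cells in these values was not tested.

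The promoters of the other pathway genes were searched in the same way, with 105 of them in the RefSeq table. The full ER stress response element stood in 6 (5.71%), those of Calr, Canx, Creld2, Derl3, Dnajc3 and Syvn1. They are named for this match and not by their values, and their levels did not move together. Dnajc3 rose and Syvn1 fell, as given above. Calr and Creld2, induced by ER stress (log2 fold change 0.67 ± 0.23, adjusted p = 0.0699, past the threshold in 4 of the 16 other settings), did not pass, nor did Canx, which encodes calnexin (log2 fold change 0.18 ± 0.13, adjusted p = 0.337). Derl3, a degradation channel gene, was near the lower limit of counting with 0.375 ± 0.0831 CPM in JMML and 0.575 ± 0.0167 CPM in WT (SD, n = 3 each), and did not pass (log2 fold change -0.61 ± 0.36, adjusted p = 0.236). The second element stood in 2, those of Dnajb11 and Krtcap2, which both rose. The element TGACGTGG stood in 6 and the short site CCACG in 64 of the 105.

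The genes whose profile over the 6 libraries was nearest to that of Xbp1, by the root mean square difference of centred log2 CPM among 10498 genes, were Tmed8 (0.0380), Akr1b3 (0.0381), Lamp1 (0.0441), Aatk (0.0455) and Rnf130 (0.0462). Lamp1, a lysosomal membrane protein, had 644, 646 and 599 CPM in JMML replicates 1, 2 and 3, against 371, 353 and 370 CPM in WT replicates 1, 2 and 3. As for Xbp1, its lowest JMML value was in replicate 3. None of the 9 other genes of the set was among these nearest genes. Atf6 was closest at rank 510 of 10498, followed by Pdia6 (1042), Herpud1 (1329), Dnajb9 (1507), Hspa5 (1666) and Hsp90b1 (1822). Pdia4 stood at rank 2775, Sdf2l1 at 3951 and Ern1 at 8880.

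Markers of other cells moved with the same contrast, in which 12.4% of all genes were called higher and 13.8% lower. All 8 markers of cross-presenting dendritic cells were higher in JMML (summed 860 to 1372 CPM in JMML and 464 to 516 CPM in WT), among them Tlr3 (log2 fold change 3.59 ± 0.20, adjusted p = 0.000699) and Xcr1 (log2 fold change 4.51 ± 0.38, adjusted p = 0.00186). Most of these sums came from Irf8 and Wdfy4. Irf8 had 293 to 458 CPM in JMML and 168 to 192 CPM in WT, and Wdfy4 had 479 to 780 and 260 to 331 CPM. Of 9 granulocyte-monocyte progenitor markers, 5 were higher and 0 lower (summed 3626 to 5327 CPM in JMML and 2988 to 3448 CPM in WT), among them Ms4a3 (log2 fold change 1.26 ± 0.11, adjusted p = 0.00191) and Ctsg (log2 fold change 1.0 ± 0.14, adjusted p = 0.00470). The progenitor count was 8 without JMML replicate 1, and 3 when WT replicate 1 or 2 was left out. Plasma cells, the known high users of Xbp1, gave a mixed list: 1 of 7 tested markers was higher (Tnfrsf13b, log2 fold change 1.24 ± 0.10, adjusted p = 0.00186) and 3 were lower, with a sum of 114 to 115 CPM in JMML and 99.9 to 221 CPM in WT. Tnfrsf13b made up 95.9 to 98.5 CPM of that sum in JMML and 37.7 to 44.7 CPM in WT, and the other 6 markers summed to 16.6 to 18.5 CPM in JMML and 62.2 to 177 CPM in WT. The mean log2 difference of the list was -2.34. Tnfrsf17 and Fcrl5, markers of plasma cells, were near 0 in both groups, with at most 8 counts in any JMML library and 26 in any WT library, and were not tested. Pou2af1 had 8, 14 and 30 counts in JMML replicates 1, 2 and 3, against 1128, 1033 and 4021 counts in WT replicates 1, 2 and 3. The part of these cells in the levels of Xbp1 and the folding genes was not tested.

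Markers of most other lineages were lower in JMML, and those of eosinophils were not. All 12 B cell markers were lower (summed 13.9 to 21.5 CPM in JMML and 129 to 537 CPM in WT), and Vpreb3 was at 0 in JMML replicates 1 and 2. With the letter as a covariate 5 of these B cell markers and 0 of the erythroid markers below were called lower. All 10 megakaryocyte markers were lower (23.3 to 44.7 CPM in JMML and 337 to 1056 CPM in WT), as were 7 of 10 endothelial and stromal markers (983 to 1478 CPM in JMML and 936 to 2883 CPM in WT), or 4 when JMML replicate 2 or WT replicates 2 or 3 were left out singly. Col1a1 alone made up 923 to 1365 CPM of that sum in JMML and 549 to 2151 CPM in WT, and the other 9 summed to 60.2 to 113 CPM in JMML and 386 to 732 CPM in WT. Of 7 tested markers of plasmacytoid dendritic cells, 3 were lower and 0 higher by edgeR, with 1 higher at an unadjusted p under 0.05 and 0 by DESeq2 (59.8 to 153 CPM in JMML and 152 to 229 CPM in WT). Of 9 erythroid markers, 5 were lower (361 to 1414 CPM in JMML and 1786 to 2373 CPM in WT), with 0 to 9 lower when single libraries were left out (9 without JMML replicate 1, 1 without JMML replicate 3, and 1, 0 and 2 without WT replicates 1, 2 and 3). No eosinophil marker of 9 was called by edgeR (432 to 1045 CPM in JMML and 187 to 1116 CPM in WT), with 1 higher at an unadjusted p under 0.05 and 1 by DESeq2, and Siglecf had an adjusted p of 0.0620. The median log2 fold change of these eosinophil markers was 0.51, and 8 of the 9 fold changes pointed to JMML. The part of each of these lineages in the results for the 10 genes was not tested.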

How the data were processed

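RNA of 6 mouse libraries was made into libraries with a stranded TruSeq kit for total RNA, per the labels' protocols. The authors deposited raw counts per Ensembl gene with no normalization, and the submitters' processing notes name GRCm38, STAR 2.5.3a, StringTie 1.3.3b and DESeq2 1.22.2. Which tool counted, on which strand and how mates were handled is not given in the sources used here. Between 51.6% and 58.8% of counts from 1 to 20 were even, so both mates may have been counted, and counts then overstate independent fragments.

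Symbols, positions and exon lengths came from GENCODE vM21, which matched 98.2% of identifiers. Groups came from the labels. The test was edgeR 4.0.16 under R 4.3.3 (filterByExpr, TMM, quasi-likelihood F test, Benjamini-Hochberg adjustment over all genes tested, threshold 0.05), and the biological coefficient of variation was 29.4%. In simulated counts of 17875 genes for JMML against WT, every gene was given the same variation. Of 1.5-fold, 2-fold and 4-fold changes, 2%, 16% and 96% were recovered, with 5 false among 112 calls. Levels between genes used CPM per kilobase of exon. Promoters came from RefSeq.

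There were 16 alternatives: DESeq2 1.42.0, its size factors, limma-voom (limma 3.58.1), library totals, 50 counts in 3 libraries, no filter on low counts, removal of an exon length trend, the identifier letter as covariate, only letter M libraries, a replicate block, and leaving out each library. The 10 genes and all lists were chosen with earlier results of these data known. Besides the 10 genes, up to 4 genes per pathway list and 2 per marker list with the smallest p, and the 5 nearest to Xbp1, were named.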

Additional observations from a re-analysis of the deposited data

How the results depend on the processing

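No fold change of a named gene reversed a call in any of the 16 alternatives. Of 160 alternative values for the 10 genes, 109 kept their side of the threshold, 48 lost a call and 3 gained one. The 109 include 16 of Ern1 and 13 of Pdia4, which were not called with all libraries, and 16 of Xbp1. All 48 lost calls were of the 8 genes called with all libraries. Genes higher in JMML numbered 2245, against 969 with the identifier letter as covariate, 1287 with library totals, 1012 with only letter M libraries, 1358 with the replicate block, and 1050 to 1955 when single libraries were left out. Genes lower numbered 2492, against 1250 (letter), 1298 (only letter M), 1451 (block), and 1153 to 2048 without single libraries. Of the 10 genes, 8 were called higher, against 5 with at least 50 counts in 3 libraries, 2 with library totals, 4 with the block, and 1 to 8 without single libraries. Of the other pathway genes, 51 were higher, against 23 (letter), 21 (totals), 28 (only letter M), 24 (block), and 18 to 47 without single libraries, and 4 were lower, against 8 (totals), 2 (block), and 1 to 3 without single libraries. The cause of these differences was not tested. Fits without a single library hold fewer samples, and only letter M leaves 1 JMML library, assumed to vary like the others. With the letter as covariate, fold changes likewise come from JMML replicate 3 against the WT libraries.

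Library totals moved the median of all genes by -0.18 on the log2 scale and the share of calls that were higher from 47.4% under TMM scaling to 27.1%. No filter on low counts moved that median by -0.40. Same-numbered libraries of the groups deviated with correlations of -0.20, 0.05 and -0.14, and the labels do not say what a number marks, so the block was used only as a check. The last of these correlations is that of the replicate 3 libraries, whose identifiers begin alike. A simulated 2-fold change was recovered in 16% of genes, and fold changes of most of the 10 genes are smaller. The simulation gave all genes the same variation and changed few of them. Its shares therefore do not measure how well changes of the 10 genes can be recovered. Protein features were not analysed here.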
